A study of Sus scrofa domesticus with 16 samples.

Results

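Small GTPases act as molecular switches that are on when they hold GTP and off when they hold GDP. Guanine nucleotide exchange factors (GEFs) load them with GTP, and GTPase-activating proteins (GAPs) speed up the hydrolysis that switches them off. In the lung, Rac and Cdc42 are known for control of the actin cytoskeleton and of leukocyte movement, whereas the Rab and Arf families direct membrane traffic and the Ras, Rap and Ral families link receptors to growth and adhesion. The genes described here are the GEFs and GAPs with a differentially methylated site (DMS) in pig lung, chosen by symbol: all listed sites whose gene symbol starts with one of the family prefixes such as ARHGAP, ARHGEF, DOCK, VAV, TBC1D or CYTH, without AGAP1. They comprised 39 of the 2349 listed DMSs, in 25 of the 898 genes with a symbol, on 14 chromosomes. Beyond the limits that every site of the table had passed, the rule made no use of the differences.

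Methylation was read by reduced representation bisulfite sequencing, which covers CpGs near the cut sites (CCGG) of the enzyme MspI, in lung DNA (upper lobe of the left lung, taken after slaughter) of 16 pigs of the subspecies Sus scrofa domesticus. In the increased-dose group, 8 pigs (4 males and 4 females) received 3000 IU of cholecalciferol (vitamin D3) per kg of grower feed and 2500 IU per kg of finisher feed. In the standard-dose group, 8 pigs (4 males and 4 females) received 2000 and 1500 IU per kg in the same 2 feeds. The feed was otherwise the same, no animal went without the vitamin, and both sexes were compared together. Each site has 1 difference (the methylation percentage of the increased-dose group minus that of the standard-dose group, in points) and 1 q-value, both taken from the authors' deposited table. Values per animal and read depth are not used here, so no spread between animals stands behind any value below, no test over animals could be run, and the q-values rest on the authors' own test. The 2349 listed sites were at most 0.352% of the sites tested, if the row numbers of that table count tested sites. All listed sites had passed limits of 25 points and a q-value of 0.05. Lung is a mixture of cell types, and a change in the share of a cell type and a change of methylation within cells cannot be told apart.

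Of the 39 sites, 25 (64.1%) had higher methylation with the increased dose and 14 had lower methylation. Among all 2349 listed sites, 59.3% were higher and 40.7% lower, so the split of the GEFs and GAPs lay near the background. The median gain was 30.4 points, against 30.7 points over all listed sites, and the median loss was -33.7 points, against -29.8 points. The losses included 3 sites of DOCK1 within 75 bases and a pair of VAV2 sites 31 bases apart. These are not independent, but each was counted on its own in that median. The median absolute difference was 31.3 points among the members and 30.4 points over all listed sites. The q-values of the members lay between 1.5e-85 and 1.3e-06. Counted by gene, with the mean over its sites, 18 genes had a gain and 7 a loss. The plot of all member sites by gene shows that no value lies between -25 and 25 points, which the limit of the table sets.

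**Figure D1:**
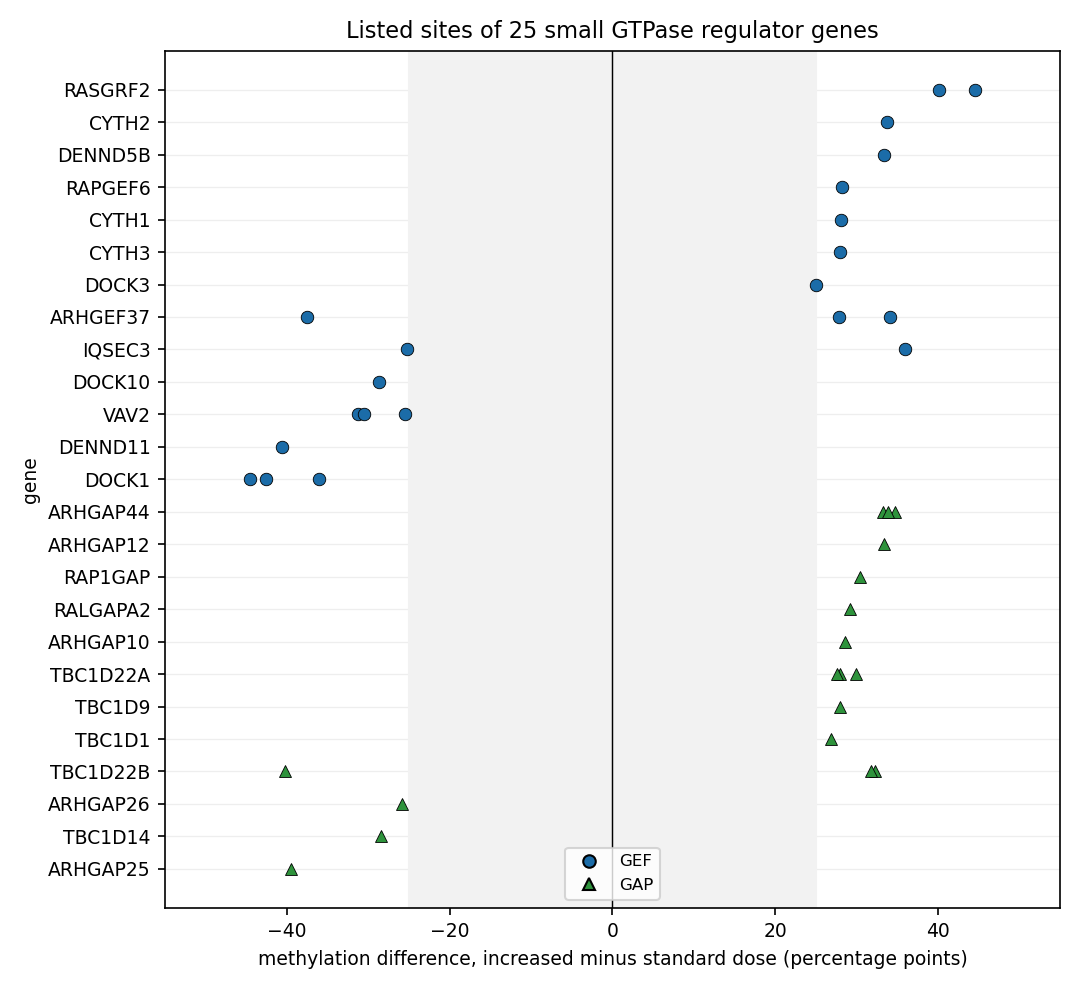
Difference in methylation (x axis, percentage points, increased minus standard) of each of the 39 listed sites, by gene (y axis, GEFs above GAPs); circles are GEFs, triangles are GAPs and grey is the range under the limit of 25 points. Sites run between -44.6 and 44.6 points, with DOCK1 at the low end and RASGRF2 at the high end.

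Sites were also counted by the GTPase family that the protein regulates. Regulators of the Rab family had 8 gains and 3 losses in 7 genes, and those of the Arf family 4 gains and 1 loss in 4 genes. Ras, Rap and Ral regulators had 5 sites in 4 genes, and all 5 were gains. Over all families, GEFs had 11 gains among 21 sites (52.4%) and GAPs 14 among 18 (77.8%). These are counts of sites, several of which share a gene, and the difference between families or roles was not tested.

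The direction of the larger differences depended on the limit. Of the 22 member sites of at least 30 points, 13 were gains (59.1%). Of the 10 member sites of at least 35 points, 7 were losses and 3 were gains (30%), while 64.4% of the 635 listed sites of that size were gains. The 7 losses were 3 sites of DOCK1 and 1 site each of ARHGAP25, ARHGEF37, DENND11 and TBC1D22B. The 3 sites of DOCK1 lay on the same MspI fragment and are not independent. The 3 gains were both sites of RASGRF2 and 1 site of IQSEC3. Sites of at least 40 points made up 15.4% of the members and 13.7% of all listed sites. Among the members these were 2 gains and 4 losses, while 67.1% of the listed sites of that size were gains.

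DOCK1 had the largest loss of all members. DOCK1 activates Rac, together with the adaptor ELMO, during cell migration and the engulfment of dying cells. Its 3 sites lay within 75 bases of intron 27 of 54 on chromosome 14, with differences of -36.1 points at 136408076 (q = 2.1e-09), -42.6 points at 136408123 (q = 6.8e-20) and -44.6 points at 136408151 (q = 1.5e-20). All 3 lay on the same MspI fragment of 550 bases, in sequence that the reference does not mask as repeat. The reference holds 8 CpGs from the first to the last of these sites, and by the row numbers, read in that way, all 8 were tested. The other 5 did not pass the limits, and their differences are not used here. The sequence is shown because it carries the largest loss of the set, with the listed CpGs in capitals (Sscrofa11.1, chr14:136408056-136408172, plus strand, which is the strand of DOCK1). Windows of the other genes with several sites and of the largest gains and losses are given below in the same way, with 20 bases to each side, so that the neighbourhood of each CpG can be compared.

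DOCK1: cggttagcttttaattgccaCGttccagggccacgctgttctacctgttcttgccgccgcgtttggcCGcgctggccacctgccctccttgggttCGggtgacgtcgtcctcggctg

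VAV2, a broadly expressed GEF that is switched on by tyrosine phosphorylation below growth factor and immune receptors, had 3 losses on chromosome 1. A pair 31 bases apart in intron 24 of 27 had -31.3 points at 273312781 (q = 8.6e-32) and -30.5 points at 273312812 (q = 2.0e-30). The remaining site had -25.5 points (q = 3.1e-29) at 273471060 in intron 1, 158248 bases from the pair and 5190 bases into the gene. Sites near both ends of the gene were thus lower with the increased dose, while 206 tested sites between them were not listed. A site in an intron of the paralogue VAV3, without a gene symbol in the table and therefore no member, had a gain of 37.7 points.

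VAV2 pair, chr1:273312761-273312833, plus strand: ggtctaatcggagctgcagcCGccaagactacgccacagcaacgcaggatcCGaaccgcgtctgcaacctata

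VAV2 intron 1, chr1:273471040-273471081, plus strand: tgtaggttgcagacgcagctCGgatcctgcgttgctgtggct

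ARHGEF37, a GEF with a Dbl homology domain, had sites of both directions on chromosome 2. It had gains of 27.9 points at 150696484 in intron 2 of 12 (q = 1.3e-06) and 34.1 points at 150703426 in intron 3 (q = 1.2e-06), and a loss of -37.6 points at 150719411 in intron 4 (q = 1.5e-17). The gains had the largest q-values of all members. The DOCK relatives differed in direction. DOCK10, which activates Cdc42 in lymphocytes, had a loss of -28.7 points in intron 42 of 55. DOCK3, a Rac GEF best known from neurons, had a gain of 25.01 points (q = 1.6e-07) at 33655398 on chromosome 13 in the 3′ UTR, in the last of its 55 exons. DOCK3 was the member nearest to the limit of 25 points.

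ARHGEF37 intron 2, chr2:150696464-150696505, plus strand: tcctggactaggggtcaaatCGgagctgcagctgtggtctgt

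ARHGEF37 intron 3, chr2:150703406-150703447, plus strand: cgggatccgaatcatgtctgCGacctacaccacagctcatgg

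ARHGEF37 intron 4, chr2:150719391-150719432, plus strand: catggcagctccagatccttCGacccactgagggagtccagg

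ARHGAP44 had 3 sites, and all 3 were gains. This GAP of Rac and Cdc42 has a membrane-bending BAR domain and is known mainly from neurons and epithelia. On chromosome 12, its differences were 34.8 points at 57157647 in intron 4 of 20 (q = 3.2e-09), 33.3 points at 57168738 in intron 7 (q = 1.6e-15) and 33.9 points at 57168750, 12 bases further (q = 3.3e-16). All 3 sites lay in unmasked sequence, in CpG islands that also met a stricter definition. The 2 CpGs between the close pair were tested and not listed.

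ARHGAP44 intron 4, chr12:57157627-57157668, plus strand: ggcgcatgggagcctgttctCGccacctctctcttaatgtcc

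ARHGAP44 intron 7, chr12:57168718-57168771, plus strand: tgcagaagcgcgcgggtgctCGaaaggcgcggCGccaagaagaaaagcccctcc

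ARHGAP25, a Rac GAP of leukocytes that restrains phagocytosis, had the member site nearest to a gene start. The site on chromosome 3 at 73651463 had -39.6 points (q = 1.0e-59) and lay 1466 bases upstream of the start of the gene, beyond the 1000 bases taken as promoter. No other member site lay within 2000 bases of the start of its gene. ARHGAP12, which acts on Rac at epithelial junctions, had a gain of 33.4 points (q = 6.8e-14) at 42529029 on chromosome 10, in intron 3 of 17. ARHGAP10 and ARHGAP26, related GAPs with a BAR domain, differed in direction, with 28.6 points in ARHGAP10 and -25.9 points in ARHGAP26, each in intron 1.

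ARHGAP25 upstream, chr3:73651443-73651484, plus strand (the gene is on the minus strand): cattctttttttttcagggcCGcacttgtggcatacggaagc

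RASGRF2, a Ras GEF that responds to calcium through calmodulin, had the largest gains of all members. On chromosome 2, its sites had 40.1 points at 89672500 in intron 12 of 26 (q = 4.9e-14) and 44.6 points at 89761034 in intron 19 (q = 1.5e-85), the smallest q-value of the set. They lay 88534 bases apart, with 26 tested and unlisted sites between them. Rap and Ral regulators had 1 site each. RAPGEF6, a Rap GEF of cell junctions, had 28.3 points in intron 4 of 29, and RALGAPA2, a catalytic subunit of the Ral GAP complex, had 29.2 points in intron 3 of 39. At RAP1GAP, which switches off Rap1, a gain of 30.4 points lay 3506 bases past the end of the gene, in intergenic sequence.

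RASGRF2 intron 12, chr2:89672480-89672521, plus strand: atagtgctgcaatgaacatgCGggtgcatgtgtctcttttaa

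RASGRF2 intron 19, chr2:89761014-89761055, plus strand: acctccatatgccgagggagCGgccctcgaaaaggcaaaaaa

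Rab GAPs with a TBC domain had 9 sites in 5 genes, and the paralogues TBC1D22A and TBC1D22B had 6 of them. The 3 sites of TBC1D22A in intron 5 of 13 on chromosome 5 were gains, of 27.98 points at 2727552 (q = 1.2e-10), 27.56 points at 2737446 (q = 6.6e-08) and 30 points at 2750113 (q = 4.3e-15). In TBC1D22B, 3 sites within 55 bases of intron 2 of 12 on chromosome 7 went in opposite directions. The first had -40.3 points at 32858198 (q = 3.5e-14), and the others had 32.3 points at 32858239 (q = 7.8e-09) and 31.8 points at 32858253 (q = 1.3e-08). They lay on the same MspI fragment of 510 bases, and all 5 CpGs from the first to the last were tested. The step between its first and second site was the only one of 6 neighbouring member pairs, at most 100 bases apart, with opposite directions. Over all listed sites, 86.0% of 271 such neighbouring pairs had the same direction. In TBC1D22B, a search with windows of 102 bases around the 3 sites found 70, 179 and 85 other near-identical copies in the genome. Such a copy had at least 95% identity over at least 90% of the window. The part of these copies in the differences was not tested.

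TBC1D22B, chr7:32858178-32858274, plus strand: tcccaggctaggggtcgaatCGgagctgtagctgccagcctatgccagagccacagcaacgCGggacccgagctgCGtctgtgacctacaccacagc

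TBC1D22A at 2727552, chr5:2727532-2727573, plus strand: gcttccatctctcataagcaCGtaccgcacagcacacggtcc

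TBC1D22A at 2737446, chr5:2737426-2737467, plus strand: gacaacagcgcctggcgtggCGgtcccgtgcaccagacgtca

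TBC1D22A at 2750113, chr5:2750093-2750134, plus strand: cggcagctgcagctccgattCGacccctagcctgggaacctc

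**Figure D2:**
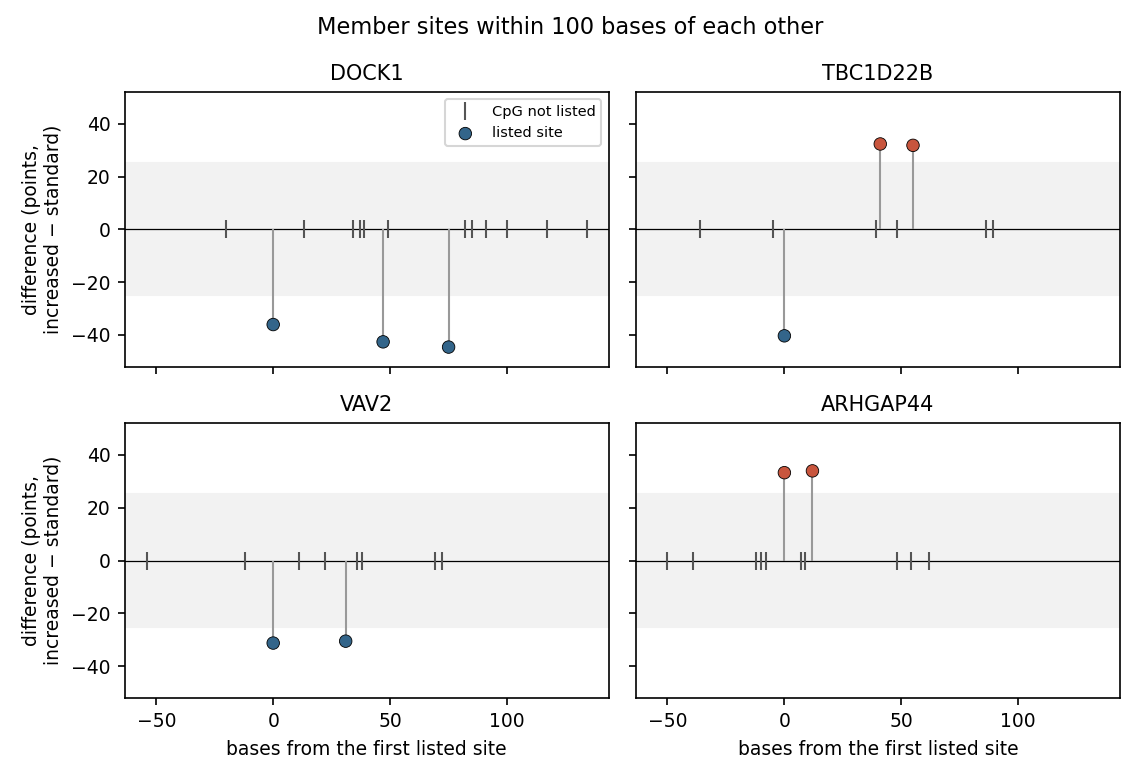
Methylation difference (y axis, percentage points, increased minus standard dose) against distance in bases from the first listed site (x axis) for the 4 genes with member sites at most 100 bases apart. Points are listed sites, grey strokes on the zero line mark the place of CpGs that were not listed and carry no value. The sites of DOCK1 and VAV2 lie below -25 points, those of ARHGAP44 above 25, and TBC1D22B has 1 site at -40.3 and 2 above 25.

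The other Rab regulators had 1 site each. TBC1D1, known for control of glucose transporter traffic in muscle, had 26.9 points, TBC1D9 had 28.02 points, and TBC1D14, a regulator of autophagy, had -28.5 points. The GEFs with a DENN domain went in opposite directions. DENND11 had -40.6 points (q = 6.9e-16) at 8236372 on chromosome 18, in intron 3 of 9 of a gene that RefSeq lists under its older symbol KIAA1147. DENND5B had 33.4 points (q = 6.7e-08) at 42785292 on chromosome 5, in intron 5 of 23.

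DENND11, chr18:8236352-8236393, plus strand: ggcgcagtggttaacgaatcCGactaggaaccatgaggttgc

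Arf GEFs were represented by 3 cytohesins and IQSEC3. Cytohesins load Arf GTPases at the plasma membrane through a Sec7 domain, and all 3 had a gain. CYTH1 had 28.1 points (q = 9.5e-08) at 3431295 on chromosome 12, in the 3′ UTR in the last of 13 exons. CYTH2 had 33.8 points (q = 2.0e-21) at 53874737 on chromosome 6, in intron 7 of 11. CYTH3 had 27.9 points in intron 1 of 12. The nearest other listed site to that of CYTH2 was 39209 bases away in GRIN2D, with 63.1 points. IQSEC3, an Arf GEF of inhibitory synapses, had -25.3 points (q = 4.3e-10) at 67448389 on chromosome 5, in intron 1 and 2550 bases from the start of the gene, and 35.98 points (q = 1.4e-11) at 67529101 in intron 12 of 14. With DOCK3, the loss in IQSEC3 was the value nearest to the limit of 25 points. No site carried the symbol of an Arf GAP other than AGAP1, which had 19 gains of 25.9 to 45.1 points. With AGAP1 counted, 44 of 58 sites (75.9%) would be gains.

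IQSEC3 intron 1, chr5:67448369-67448410, plus strand: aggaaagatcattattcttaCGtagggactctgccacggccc

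IQSEC3 intron 12, chr5:67529081-67529122, plus strand: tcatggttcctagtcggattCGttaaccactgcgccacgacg

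Most member sites lay within introns. By the RefSeq annotation of Sscrofa11.1, 35 of 39 sites (89.7%) were in introns, 2 in 3′ UTRs and 2 in intergenic sequence, and none was in a coding exon, a 5′ UTR or a promoter. Among the 1242 listed chromosomal sites with a gene symbol, 81.6% were in introns, and among all 2252 listed chromosomal sites 57.5%. Of the 37 sites inside a gene, 11 lay in the first 25% of its length, 10 between 25 and 50%, 6 between 50 and 75% and 10 beyond 75%, and 5 lay in the first intron. CpG islands by a lenient definition held 28 sites (71.8%), against 72.0% of listed sites with a symbol and 70.6% of all listed sites. By a stricter definition they held 10 sites (25.6%), against 20.0% and 17.3%. Islands were called from base composition alone. Most sites in lenient islands, such as those of TBC1D22B and VAV2, also lay in the repeat described below. Genes with a site were long. In RefSeq, 24 of 196 protein-coding genes of these families (12.2%) had a symbol in the table, against 4.29% of all protein-coding symbols. These 24 had a median length of 164958 bases and a median of 246 MspI sites, while the other 172 had 96089 bases and 113 MspI sites. All 196 had a median length of 102638 bases, against 20654 over all protein-coding symbols. The part of gene length in the 2 shares was not tested. The study had already reported enrichment of GTPase regulator activity among its genes with changed methylation. The higher share in these families is therefore no separate result. A further 9 listed sites without a symbol lay in introns of 6 genes of the same families. These were ARHGAP6 (gains of 35.9 and 28.8 points), ARHGAP36 (-29.6), ASAP1 (-32.1 and -30.1), RAPGEF5 (gains of 36.8 and 36.7), SIPA1L1 (32.3) and VAV3 (37.7).

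The members shared a sequence that the choice by symbol had not used. The 302-base windows around 22 of the 39 sites, in 16 genes, each aligned over at least 100 bases with 14 to 21 windows of other member genes. They were copies of a CpG-rich interspersed repeat whose sequence is recognisable as the short tRNA-derived element of pigs known as PRE-1. The reference marks repeats in lower case without naming families, so the name comes from general knowledge. The copy in intron 1 of ARHGAP10, which aligned with the windows of all 21 other sites, is shown for reference, with its 15 CpGs in capitals (chr8:80996254-80996533, plus strand).

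Repeat copy in ARHGAP10: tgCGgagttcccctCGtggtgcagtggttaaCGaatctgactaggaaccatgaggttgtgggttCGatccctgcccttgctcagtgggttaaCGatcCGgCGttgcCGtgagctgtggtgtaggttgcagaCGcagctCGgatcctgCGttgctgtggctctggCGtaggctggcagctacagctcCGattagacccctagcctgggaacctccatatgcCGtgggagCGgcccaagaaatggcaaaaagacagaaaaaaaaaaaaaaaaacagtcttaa

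With this copy as a query, 962333 separate stretches of the chromosomes were found. They held 22.9% of all CpGs of the reference and 29.0% of those within 150 bases of an MspI site. They held 56.4% of the member sites, 57.1% of the listed sites with a gene symbol and 58.0% of all listed chromosomal sites. The GEF and GAP sites therefore lay in the repeat about as often as other listed sites did. How many of the tested sites lay in the repeat is not known here. Gains made up 14 of 22 member sites inside the repeat (63.6%) and 11 of 17 outside it (64.7%), against 60.9% and 57.8% over all listed sites. The median absolute difference was 31.5 points inside and 30.4 points outside.

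**Figure D3:**
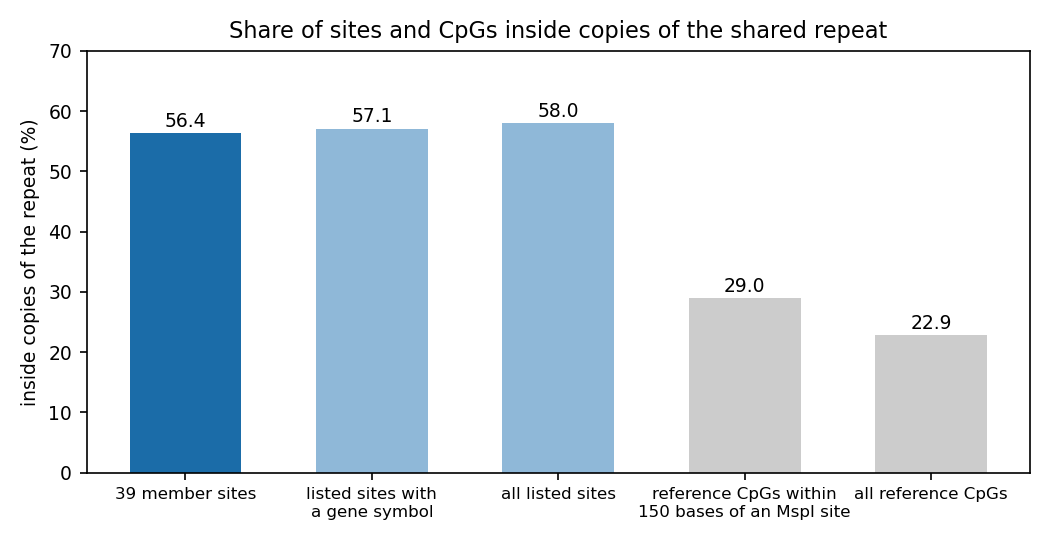
Percentage of sites inside copies of the shared repeat (y axis) for the member sites, the listed sites with a gene symbol, all listed chromosomal sites, the reference CpGs within 150 bases of an MspI site and all reference CpGs (x axis). Listed sites have 56.4 to 58.0%, reference CpGs 22.9 and 29.0%.

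Of the 22 sites, 21 could be placed on the copy by local alignment, on copies with a median identity of 91.8% to it. In 6 of them the repeat had the orientation of the gene and in 15 the opposite one. The same CpG of the repeat was listed in several genes. Position 229, counted from the start of the copy, held 4 member sites, in ARHGAP12 (33.4 points), RASGRF2 (44.6 points), TBC1D9 (28.02 points) and ARHGAP25 (-39.6 points). It was also the most frequent position over all listed sites, with 99 of 1272 (7.78%), of which 60.6% were gains. Position 101 held the sites of ARHGAP10 (28.6 points) and RAPGEF6 (28.3 points), which are on chromosomes 8 and 2. At position 187, ARHGEF37 had a gain of 27.9 points and TBC1D22B a loss of -40.3 points. One position of the repeat thus had gains in some genes and losses in others. The windows are given in the direction of the repeat, with the listed CpG in capitals.

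ARHGAP12, position 229, chr10:42529009-42529050, plus strand: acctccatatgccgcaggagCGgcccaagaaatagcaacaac

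RASGRF2, position 229, chr2:89761014-89761055, plus strand: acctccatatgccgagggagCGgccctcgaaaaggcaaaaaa

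TBC1D9, position 229, chr8:86494083-86494124, minus strand: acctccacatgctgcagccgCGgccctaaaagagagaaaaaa

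ARHGAP25, position 229, chr3:73651443-73651484, minus strand: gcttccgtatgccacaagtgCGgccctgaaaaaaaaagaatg

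ARHGAP10, position 101, chr8:80996334-80996375, plus strand: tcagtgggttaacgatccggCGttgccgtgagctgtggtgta

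RAPGEF6, position 101, chr2:133890072-133890113, plus strand: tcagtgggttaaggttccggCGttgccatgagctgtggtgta

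**Figure D4:**
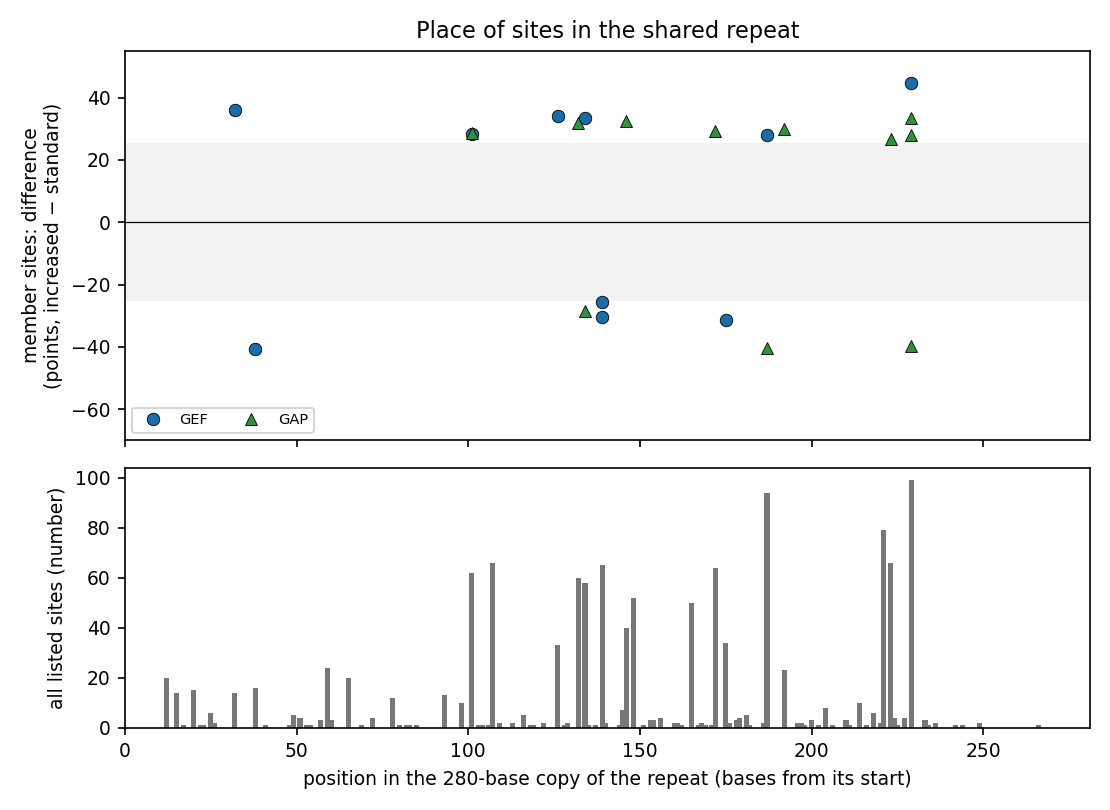
Upper panel: methylation difference (y axis, percentage points, increased minus standard dose) of 21 member sites against their position in the 280-base copy of the repeat (x axis, bases from its start); circles are GEFs, triangles are GAPs, grey is the range under 25 points, and the points of ARHGAP10 and RAPGEF6 overlap at position 101. Lower panel: number of all listed sites at each position. Position 229 has the most listed sites, 99, and 4 member sites, 3 gains and 1 loss.

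Some member windows occur many times in the genome in nearly the same form. For windows of 102 bases around 13 of the 39 sites, at least 1 other copy with 95% identity or more was found. The search started from long runs of identical bases, so copies without such a run can have been missed. A window found once may therefore still have other copies. The most were 27538 for ARHGAP10, 9094 for RASGRF2 at 89672500, 7314 for ARHGAP12 and 7097 for VAV2 in intron 1. The 26 sites with a window found once had 16 gains (61.5%) and a median absolute difference of 30.9 points, and the 13 others 9 gains (69.2%) and 31.8 points. The sites of DOCK1, ARHGAP44 and ARHGAP25, the VAV2 pair and the RASGRF2 site of 44.6 points were among those found once. The effect of such copies on read placement was not tested.

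The windows of 302 bases were also searched, on both strands, for half-sites of the kind bound by the vitamin D receptor, whose ligand is the active form of the vitamin. AGGTCA was found in 10 of 39 member windows (25.6%), against 17.1% of all listed windows. AGTTCA was found in 1 member window (2.56%, against 7.99% of all listed windows), GGGTCA in 6 (15.4%, against 15.9%) and GGTTCA in 5 (12.8%, against 15.6%). Any of these 4 was found in 17 member windows (43.6%), against 44.2% of all listed windows. The windows of the 10 member sites within 100 bases of another overlap, so the 39 windows are not separate stretches. The differences between these shares were not tested. No window, of members or of all listed sites, held 2 of them in the same orientation with NNN between.

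The other genes of these pathways were counted from 3 lists, all by symbol. Over all 19535 protein-coding symbols of RefSeq, which have a median gene length of 20654 bases, 4.29% were named at a listed site. Of 98 small GTPase genes (median length 24964 bases), 5 (5.1%) had listed sites, with 5 gains and 4 losses. RHOA, a GTPase of the actin cytoskeleton, had the largest difference, a gain of 53.0 points. RAB40B had 35.5, 34.0 and -28.8 points, and RAB7A of late endosomes had 29.2 points. None of 5 guanine nucleotide dissociation inhibitors, which hold GTPases in the cytosol, was listed. Of 74 other GEFs and GAPs outside the chosen prefixes, 72 were in RefSeq (median length 93274 bases) and 12 of these (16.7%) had sites, with 8 gains and 5 losses. The largest were gains of 37.7 points in RIN3, a Rab5 GEF, 36.5 points in FARP2, a Rac GEF, 33.8 points in GARNL3 and 32.7 points in ITSN1, a Cdc42 GEF. The part of gene length in these shares was not tested. The median absolute difference was 28.8 points in the list of GTPases and 29.8 points in that of other GEFs and GAPs.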

How the data were processed

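Lung DNA of 16 pigs was analysed, 8 on the increased and 8 on the standard dose, grouped by the treatment that the sample labels name. In the study's methods, reads were checked with FastQC, trimmed with FlexBar and mapped with BSMAP (MspI option) to the build Sscrofa11.1. CpGs needed more than 5 reads, and methylKit 1.26.0 compared the groups, with limits of 25 points and a q-value of 0.05. FastQC, methylKit 1.26.0 and Sscrofa11.1 also stand in the submitters' processing notes. The methylation difference in the authors' deposited table was treated as a signed score in percentage points. The p-value and q-value in the deposited table were computed by the authors. The q-values are printed as deposited and the p-values were not used. The sources used here do not state whether spread between animals entered that test, nor how many reads stand behind a site. The depth is therefore unknown and no interval is built on it.

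The table held the authors' own comparison and only sites past its limits, so no test was run here: members are described by counts and medians beside those of all listed sites. Members and lists were chosen with earlier results of these data known. Member symbols were matched to the RefSeq annotation of Sscrofa11.1 (24 of 25 by name, DENND11 by position). Promoters covered 1000 bp before a transcript. CpG islands were at least 200 bp long with GC over 0.5 and a CpG ratio (observed to expected) over 0.6, or, for the stricter definition, 500 bp, 0.55 and 0.65. Introns and exons were numbered on the longest transcript. Rows of the table were numbered up to 667810. This was read as the least number of tested sites, which the sources used here do not state. Repeat copies were found with BLAST 2.17.0 (aligned length of at least 100 bases) and placed with Biopython 1.88, a search added after seeing the windows. Named in full were genes with 2 or more sites, the 6 largest gains and the 6 largest losses, sites in promoters, UTRs or exons or within 2000 bp of a start, the 2 sites nearest to 25 points and up to 4 genes per pathway list. The functions were tested on simulated sequences. Alternatives were other units of counting, q-value and size limits, gene assignment, membership and island definition. Some counts by GTPase family and by pathway list are not reported here.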

Additional observations from a re-analysis of the deposited data

How the results depend on the processing

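Of 19 alternatives, 17 kept the value within its 95% binomial interval (for medians, the interval of the order statistics), which covers counting of sites only. That interval treats the sites as independent, although several share a gene or a fragment. It is wide and the alternatives mostly reuse the same sites, so staying within it says little about stability. The share of gains, 64.1% (47.2 to 78.8%), lay between 54.2% at a q-value under 1e-10 and 75.9% with AGAP1, except at 35 points or more, where it was 30% of 10 sites. The share in CpG islands, 71.8%, was 25.6% with the stricter island definition. Fewer sites met the stricter island definition by construction. The limit of 35 points also leaves fewer sites, but it does not set their direction. Over all listed sites of that size, 64.4% were gains. The share in introns lay between 87.9% and 95.6% and the median absolute difference between 28.6 and 33.3 points. A higher coverage minimum and leaving out single animals were not run, since the table used here holds neither read depth nor values per animal. No paired analysis was possible because the table used here holds no values per animal. Sites on the same MspI fragment can share reads and are not independent.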
